A study of Mus musculus with 8 samples.

Results

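Sox2 and 8 of its Sox family paralogs (Sox1, Sox3, Sox4, Sox11, Sox12, Sox13, Sox15 and Sox21) were followed in the gene-level read counts, as the 9 rows of 55335 genes whose Ensembl ID carries one of these symbols. RNA was sequenced from E14, a mouse embryonic stem cell (ESC) line, in 4 groups of 2 biological duplicates. The cells of each group were infected with lentiviral short hairpin RNA (shRNA) and selected with puromycin, so that the control group carries a scrambled hairpin rather than no hairpin. Sox2-KD received shRNAs against Sox2, the group labelled hnRNPK-KD shRNAs against Hnrnpk, and Cdk9-KD shRNAs against Cdk9. All groups were grown without feeder cells on gelatin, in medium with LIF and the inhibitors CHIR99021 and PD0325901, which hold ESCs in the undifferentiated state. The study used a pair of hairpins for each target, and which one each library received is not stated in the sources used here. The groups are pools of infected cells of a single line, and the p-values below measure the spread between such duplicates. All 9 ESC markers examined (among them Pou5f1, Nanog and Zfp42) had reads in every group. Some markers of other cell types did too, as given below, so that reads alone do not check the label of ESCs.

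SOX proteins are transcription factors that bind DNA through a shared HMG box, which bends the minor groove. SOX1, SOX2 and SOX3 form the SoxB1 subfamily of activators, SOX21 belongs to the SoxB2 repressors, SOX4, SOX11 and SOX12 are the SoxC activators, SOX13 is a SoxD protein without an activation domain of its own, and SOX15 is the SoxG member. In ESCs, SOX2 pairs with OCT4 (Pou5f1) on composite DNA elements to maintain pluripotency, and SoxB1 proteins can stand in for one another on such elements. SOX1 and SOX3 are better known from the early neural plate, and SOX21 from neural progenitors. This family was therefore examined for whether the mRNA of any paralog rose where Sox2 was knocked down.

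The HMG box is the part of these genes that is alike, and also the part that a hairpin against Sox2 could share with them. The stretch compared is the 237 bases of coding sequence between the positions of the HMG cloning primers of the study, which lie at bases 121 to 357 of the Sox2 coding sequence. They are shown for the 4 genes that are most alike, from the GENCODE vM21 transcripts (GRCm38), with every base that differs from Sox2 in capitals. The stretch covers bases 145 to 381 of the Sox1 coding sequence, 424 to 660 of that of Sox3 and 16 to 252 of that of Sox21.
Sox2: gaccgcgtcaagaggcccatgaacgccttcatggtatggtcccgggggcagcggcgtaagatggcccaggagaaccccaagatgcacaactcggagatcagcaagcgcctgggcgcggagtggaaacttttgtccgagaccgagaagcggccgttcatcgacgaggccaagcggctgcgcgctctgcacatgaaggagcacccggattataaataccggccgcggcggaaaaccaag
Sox1: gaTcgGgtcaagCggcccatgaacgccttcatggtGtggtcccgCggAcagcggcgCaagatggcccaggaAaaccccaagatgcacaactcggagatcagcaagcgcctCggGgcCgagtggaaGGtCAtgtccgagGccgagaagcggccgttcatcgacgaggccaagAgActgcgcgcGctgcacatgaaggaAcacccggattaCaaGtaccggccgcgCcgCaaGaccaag
Sox3: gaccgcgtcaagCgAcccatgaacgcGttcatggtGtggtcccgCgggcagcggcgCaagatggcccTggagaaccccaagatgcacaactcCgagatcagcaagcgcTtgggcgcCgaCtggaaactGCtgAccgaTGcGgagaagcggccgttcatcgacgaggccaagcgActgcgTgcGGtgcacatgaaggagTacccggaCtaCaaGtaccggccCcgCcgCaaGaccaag
Sox21: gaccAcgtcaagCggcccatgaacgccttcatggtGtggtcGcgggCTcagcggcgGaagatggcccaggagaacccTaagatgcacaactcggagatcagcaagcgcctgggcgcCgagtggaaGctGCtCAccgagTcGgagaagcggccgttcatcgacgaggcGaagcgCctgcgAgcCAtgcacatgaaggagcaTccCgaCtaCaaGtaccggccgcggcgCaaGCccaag
Sox1 shared 89.5% of these bases with Sox2, and Sox3 and Sox21 each shared 87.8%. The other paralogs were more distant, with 73.0% for Sox15, 68.8% for Sox4, 67.9% for Sox11, 67.5% for Sox12 and 62.0% for Sox13. Among the paralogs themselves, the SoxC genes were close to each other, with 89.5% between Sox4 and Sox11, 85.2% between Sox4 and Sox12, and 84.4% between Sox11 and Sox12. Sox3 and Sox21 shared 88.2%, so that by these bases the SoxB2 gene lies with the SoxB1 genes.

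**Figure D1:**
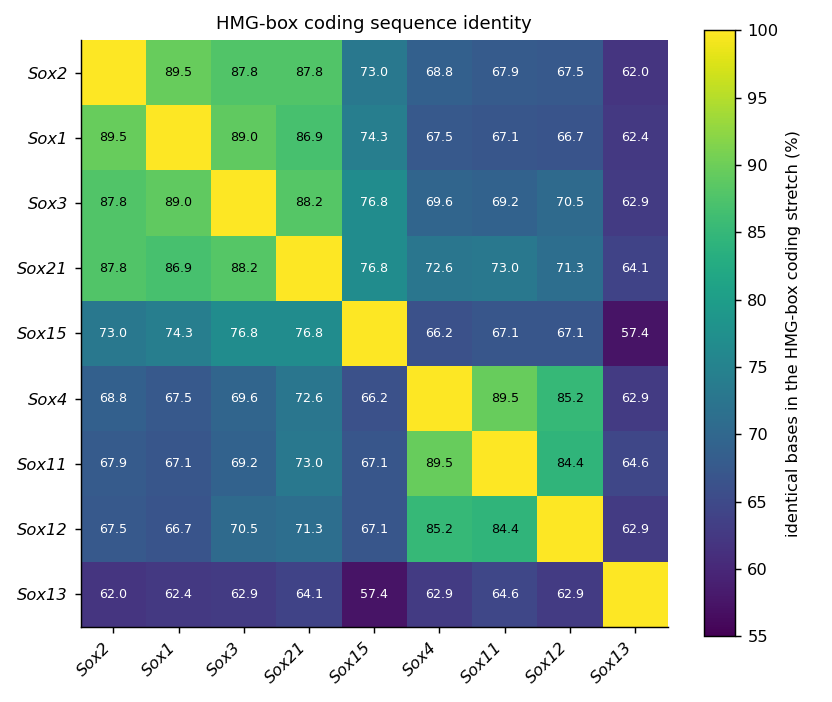
Share of identical bases (%, colour and printed value) between each pair of the 9 Sox genes over the 237-base HMG-box coding stretch. Sox2, Sox1, Sox3 and Sox21 form one block of 86.9 to 89.5%, Sox4, Sox11 and Sox12 another of 84.4 to 89.5%, and Sox13 stays at 64.6% or less with every other gene.

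Both hairpins against Sox2 were placed on the gene, which has a single exon on the + strand (chr3:34650405-34652461, GRCm38). SOX2-shRNA1 matches the coding sequence at chr3:34650729-34650749, which is bases 194 to 214 of the HMG stretch printed above. SOX2-shRNA2 matches the 3′ UTR at chr3:34651412-34651432, outside the box. The sites are shown with the closest 21-base window in the transcripts of the paralogs most like Sox2 at the first site, mismatches in capitals.
SOX2-shRNA1 site in Sox2: aggagcacccggattataaat
closest window in Sox1: aggaAcacccggattaCaaGt
closest window in Sox3: aggagTacccggaCtaCaaGt
closest window in Sox21: aggagcaTccCgaCtaCaaGt
SOX2-shRNA2 site in Sox2: caaagagatacaagggaattg
closest window in Sox21: caaagaAatacaTgTgaGGtg
The first site differs from Sox1 at 3 of 21 bases, from Sox3 at 4, from Sox21 at 5, from Sox12 and Sox13 at 6 and from the other 3 paralogs at 7 to 9. The second site differs from Sox21 at 5 bases, from Sox11 at 6, from Sox1 and Sox4 at 7 and from the others at 8 or 9. With up to 2 mismatches, Sox2 was the only annotated gene found for either site, and none was found for the 19-base control hairpin. Whether a hairpin acted on a paralog directly was not tested.

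Totals per library ran from 16709201 to 17719366 counts, and the scaling factors (TMM, trimmed mean of M values) from 0.968 to 1.05. Levels are given as CPM, the usual scale on which the TMM-scaled total of each library is set to the same number, with the standard deviation (SD) of n = 2 libraries where a group mean is given. Of 16504 genes that passed the filter on low counts, 8 were members, and Sox3 did not pass. A gene was called, that is, counted as differentially expressed (DE), where edgeR's quasi-likelihood test gave a p under 0.05 after Benjamini-Hochberg adjustment and the log2 fold change (log2FC) exceeded 0.6 in size. The targeted genes were checked first. The counts of Sox2 are given below. Hnrnpk stood at 1094 and 1131 CPM in control and at 697 and 1144 CPM under the hnRNPK-KD label, so that replicate 2 of that label was not lower than control, with a log2FC of −0.27 ± 0.20 (SE) and an adjusted p of 0.808. Cdk9 stood at 109 and 129 CPM in control and at 73.1 and 53.2 CPM in Cdk9-KD, both lower, with a log2FC of −0.91 ± 0.18 and an adjusted p of 0.0985. Values under the hnRNPK-KD label are therefore those of libraries named so, of which 1 of 2 showed lower Hnrnpk.

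In control ESCs, Sox2 stood far above its paralogs when levels were taken per kilobase of exon. It reached 229 ± 40.5 CPM per kb. The next were Sox13 with 9.24 ± 1.70, Sox12 with 8.42 ± 0.18 and Sox15 with 7.04 ± 2.43 CPM per kb, whose library values overlapped, so that no order among these 3 can be given. Sox21 (3.16 ± 0.80), Sox4 (1.92 ± 0.14), Sox1 (0.891 ± 0.388), Sox11 (0.354 ± 0.150) and Sox3 (0.0825 ± 0.0010 CPM per kb) followed, each with both control libraries under those of the one before. In Sox2-KD the order below Sox2 was Sox15 (6.31 ± 0.54), Sox12 (5.72 ± 0.57), Sox13 (3.68 ± 1.89), Sox4 (1.85 ± 0.60), Sox21 (1.71 ± 0.86), Sox11 (0.435 ± 0.479), Sox3 (0.161 ± 0.111) and Sox1 (0.110 ± 0.005 CPM per kb). Sox1 thus had the lowest mean there, although its libraries overlapped those of Sox3 and Sox11, and Sox15 with Sox12, and Sox4 with Sox21, could not be ordered beyond their spread. In Cdk9-KD, Sox21 came close to Sox12 and Sox13, with 7.27 ± 0.97 against 7.83 ± 0.25 and 7.99 ± 0.11 CPM per kb.

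**Figure D2:**
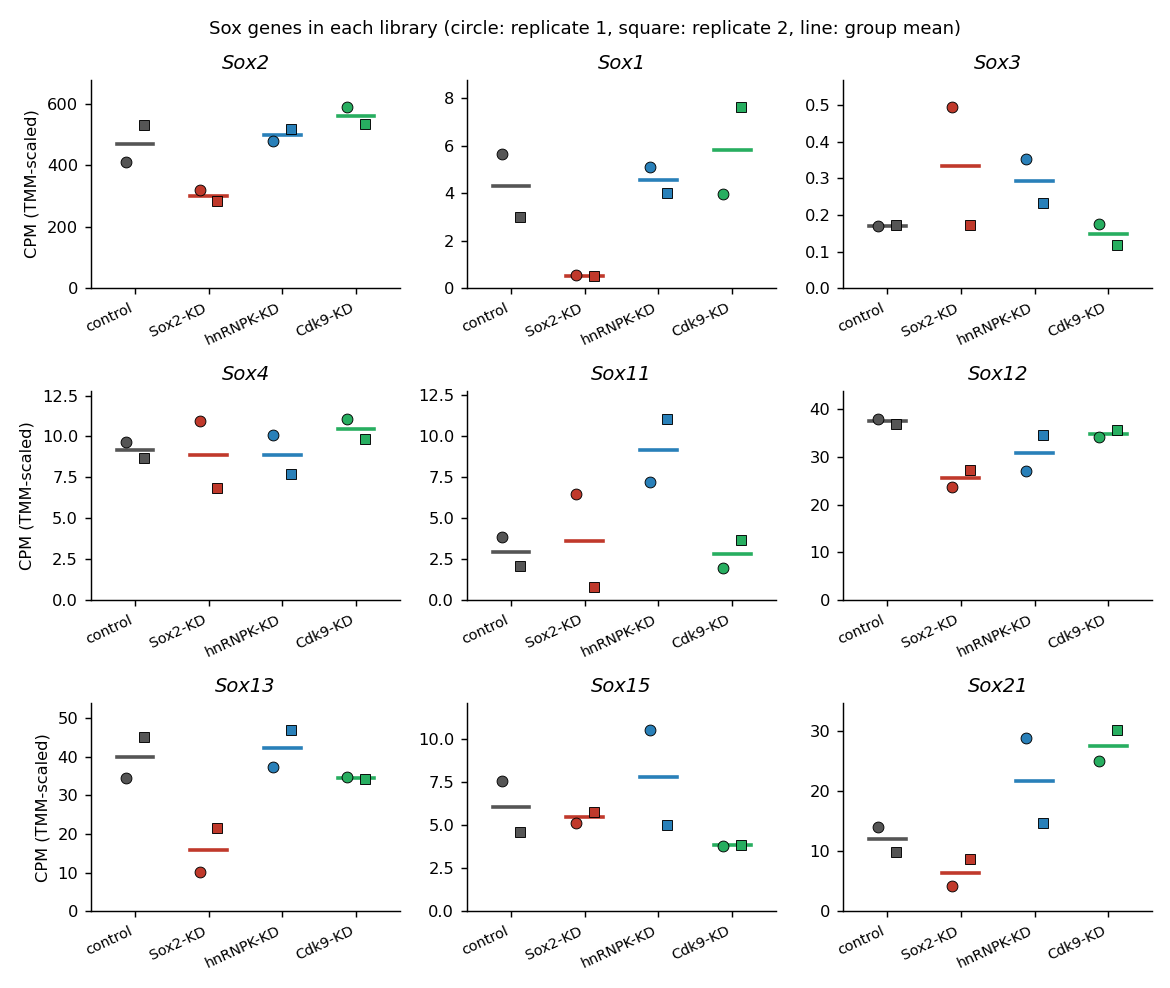
CPM (vertical axis, its own linear scale in each panel, starting at 0) of the 9 Sox genes in the 8 libraries, by group. Circles are replicate 1, squares replicate 2 and lines the mean of both. Sox2, Sox1 and Sox13 were called lower in Sox2-KD than in control. The mean of Sox21 is lower than control in Sox2-KD and higher in the other knockdown groups, with none of these differences called in the reported fit.

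In Sox2-KD, Sox2 itself was modestly lower than in control, and of the paralogs Sox1 and Sox13 passed both thresholds, both lower. No member was called higher. Thus 3 of 8 tested members were DE, against 4.32% of all tested genes in either direction and 1.69% in the lower direction. The median log2FC of the tested members was −0.60, beside 0.02 over all tested genes. With 1 library left out, the calls over all genes ran from 144 to 840, beside 713 in the reported fit. The target is one of the 3, and the members were chosen as one family, so these counts are a description.

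Sox2 had 7324 and 9257 counts (412 and 530.3 CPM) in control and 5831 and 4968 counts (320.4 and 284 CPM) in Sox2-KD. It had 479 and 520.0 CPM under the hnRNPK-KD label and 591 and 534 CPM in Cdk9-KD. The Sox2-KD libraries are the lowest of the 8, at 68.0% and 60.2% of the control mean, and the control libraries differ from each other by more than the Sox2-KD libraries do. In Sox2-KD the log2FC was −0.64 ± 0.16 (SE), with a 95% interval of −0.99 to −0.29, a 1.56-fold lower level (adjusted p = 0.0479). The direction held in all 16 refits, but the call is a borderline one and was kept in 5 of them. It was lost without either control library, either Sox2-KD library or either library labelled hnRNPK-KD, with adjusted p from 0.0611 to 0.311, and in 5 of the 8 other settings, with adjusted p up to 0.0669. Against control, Sox2 was not called under the hnRNPK-KD label (log2FC 0.08, interval −0.26 to 0.43) or in Cdk9-KD (log2FC 0.25, interval −0.10 to 0.60). In bulk RNA, fewer cells of a type and less RNA per cell cannot be told apart.

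Sox1 (chr8:12395295-12400126), the SoxB1 gene closest to Sox2 in the box, changed by the largest factor of the tested members. It had 100 and 52 counts (5.63 and 2.98 CPM) in control and 10 and 9 counts (0.549 and 0.514 CPM) in Sox2-KD. It had 87 and 69 counts under the hnRNPK-KD label and 68 and 129 in Cdk9-KD. All 6 libraries outside Sox2-KD lie above both Sox2-KD libraries, although the duplicates of control and of Cdk9-KD also differ widely from each other. The log2FC was −3.00 ± 0.50, with an interval of −4.09 to −1.91, an 8.0-fold lower level (adjusted p = 0.0102). The call was kept in all 7 other settings that gave a value and in 5 of 8 fits that left out a library. It was lost without control replicate 1 (adjusted p = 0.0616), Sox2-KD replicate 1 (0.0538) and Sox2-KD replicate 2 (0.0811). Sox1 is present at few reads in these cells and its exon also contains an annotated miRNA gene, Gm25239, over 86 bases of the same strand, whose reads the counts may not separate. Gm25239 itself had 0 counts in every library.

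Sox3 (chrX:60891366-60893430), the other SoxB1 paralog, was at the edge of detection throughout. Its counts were 3 and 3 in control, 9 and 3 in Sox2-KD, 6 and 4 under the hnRNPK-KD label, and 3 and 2 in Cdk9-KD. The libraries of the hnRNPK-KD label lie a few counts above those of control and Cdk9-KD and the other groups overlap or touch, and a change of Sox3 was not detectable at this depth. With no filter on low counts it was not called in any comparison.

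Sox13 (chr1:133382303-133424377) had 615 and 786 counts (34.6 and 45 CPM) in control and 184 and 379 counts (10.1 and 21.6 CPM) in Sox2-KD. It had 37.5 and 46.9 CPM under the hnRNPK-KD label and 34.8 and 34.1 CPM in Cdk9-KD. Both Sox2-KD libraries lie below the other 6, and they differ from each other by about as much as the higher one differs from control replicate 1. The log2FC was −1.33 ± 0.30, with an interval of −1.99 to −0.67, a 2.51-fold lower level (adjusted p = 0.0355). The call was kept in 12 of 16 refits, and with 1 library left out the log2FC ran from −1.98 (without Sox2-KD replicate 2) to −0.89. It was lost without control replicate 1 (adjusted p = 0.0769), control replicate 2 (0.190) and Sox2-KD replicate 1 (0.109), and in the fit of the 4 compared libraries alone (0.0524).

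Sox21 (chr14:118233232-118237030), the SoxB2 gene, was lower than control in Sox2-KD and higher than control in both other knockdown groups, without passing the threshold against control in any of them. It had 251 and 172 counts (14.1 and 9.85 CPM) in control and 76 and 154 counts (4.18 and 8.79 CPM) in Sox2-KD. It had 28.8 and 14.7 CPM under the hnRNPK-KD label and 25 and 30.2 CPM in Cdk9-KD. The control values overlap with those of no other group, although control replicate 1 and replicate 2 of the hnRNPK-KD label lie less than 1 CPM apart and control replicate 2 and Sox2-KD replicate 2 about 1 CPM apart. The values of the hnRNPK-KD label and Cdk9-KD overlap. The log2FC against control was −0.89 ± 0.39 in Sox2-KD (adjusted p = 0.244), 0.86 ± 0.38 under the hnRNPK-KD label (0.602) and 1.20 ± 0.38 in Cdk9-KD (0.309). Sox21 shares 713 exon bases with the antisense gene Gm4675, and since the use of strand in the counting is not stated, reads of these 2 genes cannot be told apart. Gm4675 had 4 to 19 counts in each library.

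Of the SoxC genes, only Sox12 came near the threshold in Sox2-KD. Sox12 (chr2:152393611-152398063) had 38.1 and 37.0 CPM in control and 23.7 and 27.3 CPM in Sox2-KD, beside 27.1 and 34.6 CPM under the hnRNPK-KD label and 34.1 and 35.7 CPM in Cdk9-KD. The Sox2-KD values lie under both control libraries and overlap those of the hnRNPK-KD label. The log2FC of −0.56 ± 0.18 (interval −0.95 to −0.17, adjusted p = 0.109) missed both thresholds, and Sox12 was called in none of 16 refits.

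Sox4 (chr13:28948919-28953713) had 9.69 and 8.71 CPM in control and 10.9 and 6.85 CPM in Sox2-KD, with 10.1 and 7.68 CPM under the hnRNPK-KD label and 11.1 and 9.82 CPM in Cdk9-KD. The control libraries lie between the Sox2-KD libraries, and the log2FC was −0.05 with an interval of −0.67 to 0.57. Sox4 shares 2616 exon bases with the antisense gene Gm26735, which was not analysed here. Sox11 (chr12:27334264-27342574) had 3.83 and 2.06 CPM in control and 6.43 and 0.799 CPM in Sox2-KD, with 7.21 and 11.1 CPM under the hnRNPK-KD label and 1.93 and 3.67 CPM in Cdk9-KD. Its duplicates differed widely, with 117 and 14 counts in Sox2-KD, so that its log2FC there of 0.30 had an interval of −1.28 to 1.87 and turned to −1.88 without Sox2-KD replicate 1. Against control, both libraries of the hnRNPK-KD label were higher for Sox11, with a log2FC of 1.63 ± 0.70 that was not called (adjusted p = 0.595).

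Sox15 (chr11:69655314-69656727), the shortest of the genes with 861 exon bases, had 7.55 and 4.58 CPM in control and 5.11 and 5.76 CPM in Sox2-KD, with 10.5 and 5.01 CPM under the hnRNPK-KD label and 3.8 and 3.84 CPM in Cdk9-KD. The Sox2-KD libraries lie between the control libraries, with a log2FC of −0.16 (interval −1.0 to 0.68). In Cdk9-KD both libraries were lower than control, with a log2FC of −0.67 that was not called (adjusted p = 0.591). Sox15 overlaps the antisense gene Mpdu1 by 31 bases.

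**Figure D3:**
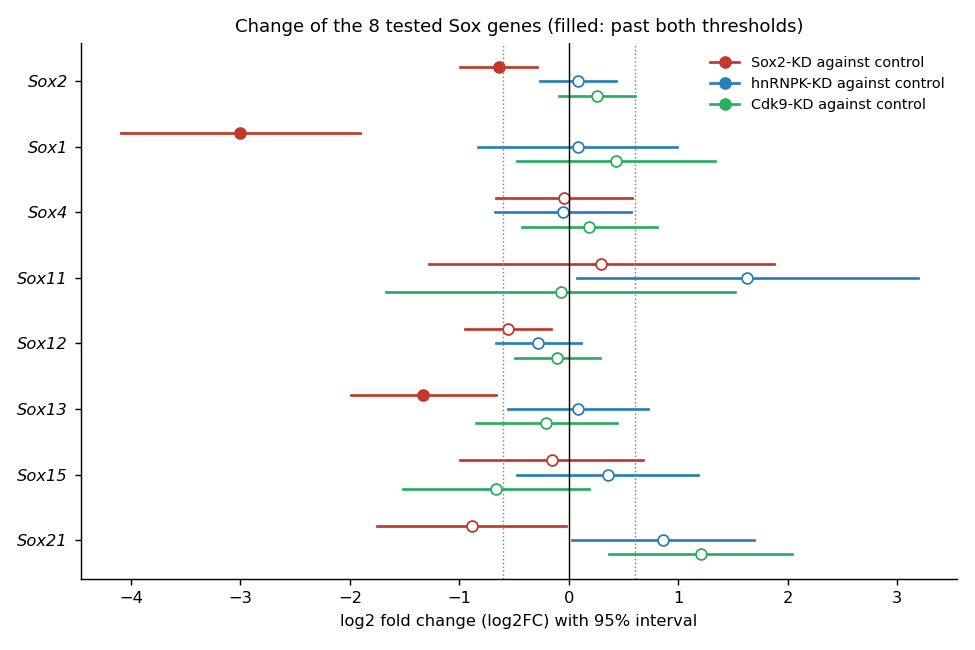
Log2FC (horizontal axis) of the 8 tested Sox genes in each knockdown group against control, with 95% intervals from the edgeR fit. Filled points passed both thresholds, and dotted lines mark a log2FC of 0.6 either way. The filled points are Sox2, Sox1 and Sox13 in Sox2-KD, and the 3 comparisons share the same 2 control libraries.

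The other knockdown groups called no member against control. Under the hnRNPK-KD label this was 0 of 8, with 0% of all tested genes called by the quasi-likelihood test, although 1325 genes had an unadjusted p under 0.05, among them Sox11 (0.0416) and Sox21 (0.0439), and DESeq2 called 83 genes. Leaving out replicate 2, in which Hnrnpk was not lower, also called 0 members. In Cdk9-KD it was 0 of 8, beside 0.139% of all tested genes, with 1720 genes at an unadjusted p under 0.05 of which Sox21 was the only member (0.00886). DESeq2 called Sox21 higher in Cdk9-KD (log2FC 1.19, adjusted p = 0.0490), among 226 of 14524 genes, beside 23 of 16504 by the quasi-likelihood test, while its adjusted p in the other 15 refits ran from 0.0981 to 0.835. The median log2FC of the tested members was 0.08 for the hnRNPK-KD label and 0.05 for Cdk9-KD, beside 0.02 over all tested genes in each.

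Set directly against the other knockdown groups, Sox2-KD was lower in 4 of 8 tested members, Sox2, Sox1, Sox13 and Sox21. Against the hnRNPK-KD label, 5.9% of all tested genes were called and 1.95% were lower in Sox2-KD. The log2FC was −3.08 ± 0.50 for Sox1 (adjusted p = 0.00836), −1.75 ± 0.39 for Sox21 (0.0288), −1.41 ± 0.30 for Sox13 (0.0252) and −0.73 ± 0.16 for Sox2 (0.0269). Leaving out single libraries lost some of these calls. Sox2 was lost without either library of either group, Sox1 without Sox2-KD replicate 2, Sox13 without Sox2-KD replicate 1 or replicate 2 of the hnRNPK-KD label, and Sox21 without either Sox2-KD library or replicate 1 of the hnRNPK-KD label. Sox21 was also lost in the fit of the 4 compared libraries alone (adjusted p = 0.0550), and without Sox2-KD replicate 2 its log2FC was −2.38 and that of Sox13 −2.06. Without Sox2-KD replicate 1, Sox11 was called lower (log2FC −3.51, adjusted p = 0.0183). Without replicate 2 of the hnRNPK-KD label, whose Hnrnpk was at the control level, Sox1 and Sox21 were called, among 129 of 17480 genes, beside 974 of 16504 in the reported fit.

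Against Cdk9-KD, 7.33% of all tested genes were called and 2.56% were lower in Sox2-KD. The log2FC was −3.43 ± 0.49 for Sox1 (adjusted p = 0.00310), −2.09 ± 0.39 for Sox21 (0.0110), −0.90 ± 0.16 for Sox2 (0.00855) and −1.12 ± 0.30 for Sox13 (0.0474). Sox1 was called in all 15 refits that gave a value and Sox13 in 5 of 16. Sox13 was lost when any library other than Sox2-KD replicate 2 was left out, with adjusted p from 0.0515 to 0.168. Without Sox2-KD replicate 2 its log2FC was −1.77. Sox2 was lost without Sox2-KD replicate 2 (0.0924), and Sox21 without Sox2-KD replicate 1 (0.0527) or Cdk9-KD replicate 2 (0.0536). Sox21, which was not called in Sox2-KD against control, differed 4.26-fold between Sox2-KD and Cdk9-KD, with a log2FC from −2.72 (without Sox2-KD replicate 2) to −1.66 when 1 library was left out, and these groups lie on opposite sides of control.

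**Figure D4:**
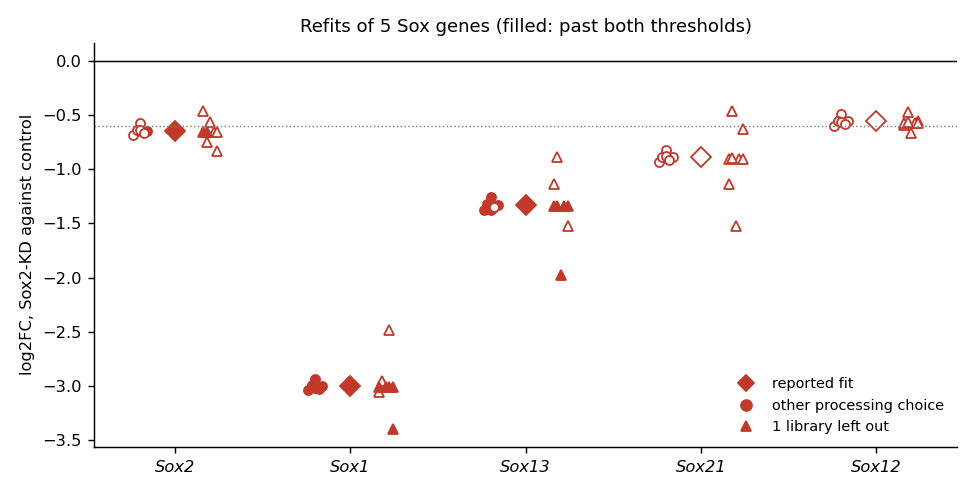
Log2FC (vertical axis) of 5 Sox genes in Sox2-KD against control in the reported fit (diamond), under other processing choices (circles) and with 1 library left out (triangles). Filled symbols passed both thresholds and the dotted line marks −0.6. All 5 genes stayed below 0 in every refit, Sox12 and Sox21 were called in none, and the filled symbols of Sox2 are 3 circles and 2 triangles beside the diamond.

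The summed level of the family, most of it Sox2 itself, was lower in Sox2-KD, while Sox2 kept about the same share of it. The summed CPM of the 9 genes was 526 to 641 in the control libraries, 355 to 382 in Sox2-KD, 606 to 644 under the hnRNPK-KD label and 659 to 705 in Cdk9-KD. Of these sums, the targeted gene Sox2 held 412 and 530 CPM in control and 320 and 284 CPM in Sox2-KD. With each count divided by exon length, Sox2 made up 85.9 and 89.8% of the family in the control libraries and 89.6 and 86.3% in Sox2-KD. It made up 85.7 and 88.7% under the hnRNPK-KD label and 90.5 and 88.9% in Cdk9-KD. The group means of 87.9 ± 2.7% in control and 87.9 ± 2.32% in Sox2-KD differed by less than the spread within either. Of the same total of all 9 genes, the share of Sox1 was 0.0660 ± 0.0008% in Sox2-KD and 0.357 ± 0.202% in control, and that of Sox4 1.10 ± 0.30% and 0.749 ± 0.165%. A larger share of this lower total is not a higher level. The mean CPM of Sox4 was 8.89 in Sox2-KD and 9.20 in control, and that of Sox15 5.44 and 6.06. Sox15 and Sox12 held the largest paralog shares in Sox2-KD, with 3.8 ± 0.55% and 3.45 ± 0.55%, while in control Sox13 and Sox12 did by their means, with 3.54 ± 0.14% and 3.28 ± 0.55%. With 2 libraries a group, a two-sided exact permutation test of these shares cannot go below p = 0.333, and none is given.

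**Figure D5:**
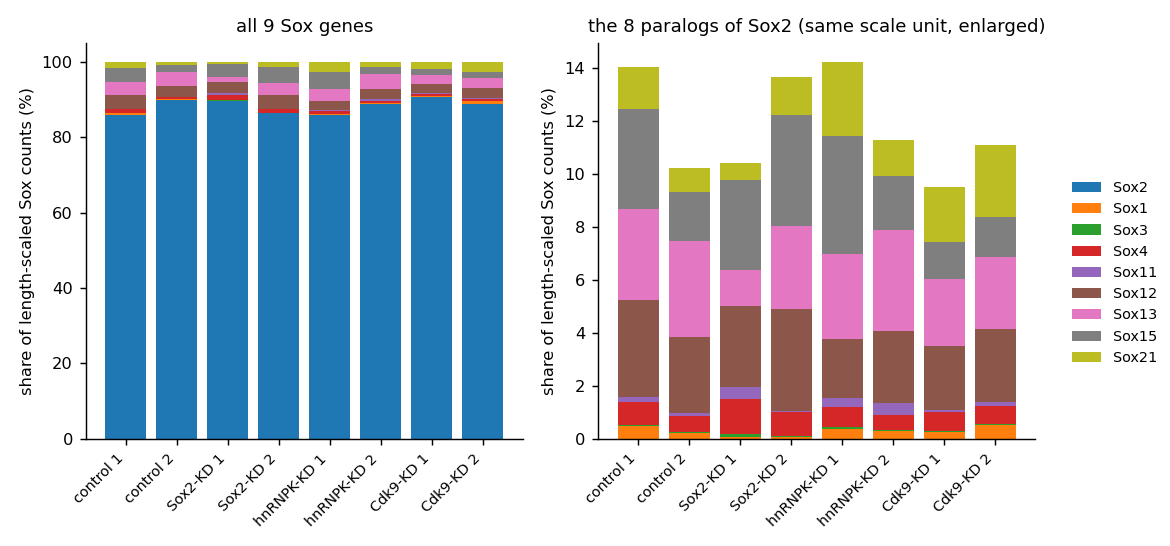
Share (%) of each Sox gene in the counts of the 9 genes after division by exon length, for each library as a stacked bar. The left panel starts at 0 and holds all 9 genes, and the right panel shows the 8 paralogs alone on an enlarged axis from 0. Sox2 takes 85.7 to 90.5% in every library, and the Sox1 band is thinnest in both Sox2-KD libraries.

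Around Sox2 lies Sox2ot, a long noncoding RNA gene on the same strand with Sox2 inside it and no shared exon base. It had 26 and 44 counts (1.46 and 2.52 CPM) in control and 94 and 151 counts (5.17 and 8.62 CPM) in Sox2-KD. It had 2.76 and 4.42 CPM under the hnRNPK-KD label and 3.86 and 3.73 CPM in Cdk9-KD. Sox2ot was called higher in Sox2-KD than in control, with a log2FC of 1.79 ± 0.41 (adjusted p = 0.0369). Refits by gene were kept for the members alone, so that this call and those of the list genes below rest on the reported fit. All 6 libraries of the knockdown groups lie above both control libraries, also in the groups where Sox2 was not called lower. Sox2-KD was not called for Sox2ot against the hnRNPK-KD label (log2FC 0.94, adjusted p = 0.195) or against Cdk9-KD (log2FC 0.86, adjusted p = 0.232). Sox1ot, the matching gene around Sox1, had 0 to 10 counts and was not tested.

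The 11 other Sox genes examined were hardly expressed, with 1.60 to 1.69 CPM summed in control, 4.34 to 5.65 CPM in Sox2-KD, 2.62 to 2.93 CPM under the hnRNPK-KD label and 2.72 to 4.03 CPM in Cdk9-KD, and 3 of them passed the filter. Sry and Sox14 had no counts in any library. Sox6, a SoxD gene like Sox13, had 8 and 17 counts in control, 42 and 57 in Sox2-KD, 27 and 30 under the hnRNPK-KD label and 46 and 19 in Cdk9-KD. It was thus above control in every knockdown library, and none of these differences was called (log2FC 1.96 ± 0.53 and adjusted p = 0.0668 in Sox2-KD). Sox8 had 2 and 1 counts in control, 11 and 12 in Sox2-KD, 8 and 6 under the hnRNPK-KD label and 5 and 8 in Cdk9-KD. Sox17, which directs endoderm formation, had 2 and 4 counts in control, 17 and 10 in Sox2-KD, 3 and 0 under the hnRNPK-KD label and 1 and 0 in Cdk9-KD. Sox8 and Sox17 passed the filter only through the Sox2-KD libraries, the group where they are highest, so that their counts are given without a test.

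The genes that SOX2 is known to work with or to activate from shared enhancers in ESCs were examined as a list. Of 10 such genes, all tested, 1 was called in Sox2-KD against control, Utf1, a chromatin factor of ESCs, which was higher with a log2FC of 0.80 ± 0.18 (adjusted p = 0.0328). Utf1 was at 25.8 and 30.9 CPM in control, 50.5 and 48.1 in Sox2-KD, 41.4 and 44.8 under the hnRNPK-KD label and 57.4 and 44.4 in Cdk9-KD, above control in every knockdown library. Fgf4, whose enhancer binds SOX2 with OCT4, was at 217 and 185 CPM in control and 93.2 and 156 CPM in Sox2-KD, with a log2FC of −0.69 ± 0.22 that was not called (adjusted p = 0.112). It was called lower against Cdk9-KD (log2FC −1.08 ± 0.22, adjusted p = 0.0159). Lefty1 (log2FC 0.71, with overlapping libraries), Pou5f1 (−0.25), Nanog (−0.43), Sall4 (−0.20), Esrrb (−0.20) and Klf4 (−0.30) were not called in Sox2-KD. The median log2FC of the list was −0.20, beside 0.02 over all tested genes.

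Some markers of other cell types differed between Sox2-KD and control, in both directions within the same list. Of 8 trophectoderm markers, 6 passed the filter, and the transcription factor Eomes and the keratins Krt8 and Krt18 were called higher in Sox2-KD. The transcription factor Gata3 passed it only through the Sox2-KD libraries, the group where it is highest, so that its counts are given without a test. The other tested markers were lower and not called, Cdx2 with a log2FC of −2.15 (adjusted p = 0.0521) and Tfap2c with −0.50. Eomes was also called higher in Cdk9-KD, with a log2FC of 2.39 (adjusted p = 0.0191). Gata3 had 43 to 50 counts in Sox2-KD and at most 6 in any library outside it. The summed level of all 8 was 89.0 to 101 CPM in control and 185 to 317 CPM in Sox2-KD. The keratins made up most of the Sox2-KD sum, with means of 140 CPM for Krt8 and 62.1 CPM for Krt18, beside 17.9 and 3.07 CPM in control. Mean Cdx2 was 27.4 CPM in control and 6.16 CPM in Sox2-KD, and mean Tfap2c 43.2 and 30.6 CPM. Elf5 had 0 to 2 counts in each library and the other 7 had counts in all of them. Of 8 primitive endoderm markers, 7 passed the filter, and Dab2 was called higher and Lama1 lower in Sox2-KD. Gata4 (log2FC −0.25), Pdgfra (0.39), Hnf4a (0.57) and Col4a1 (1.68, adjusted p = 0.138) were not called. Gata6 passed the filter only through the Sox2-KD libraries, with 49 to 68 counts there and 2 to 10 elsewhere, and is given without a test. All 8 summed to 234 to 264 CPM in control and 158 to 234 CPM in Sox2-KD. Most of that sum was Lama1, with a mean of 230 CPM in control and 114 CPM in Sox2-KD, while Dab2 went from 0.77 to 44.6 CPM. Of 8 neural markers, 2 were tested and none was called, with a summed 56.9 to 71.6 CPM in control and 46.4 to 60.2 CPM in Sox2-KD. Of 8 fibroblast markers, 5 passed the filter, and Col1a1 (log2FC −0.50), Thy1 (−0.28) and Pdgfrb (0.19) were not called. Lum passed the filter only through the Sox2-KD libraries, with 23 and 13 counts there and 0 to 2 elsewhere. Col1a2 had 4 and 1 counts in Sox2-KD and 32 and 24 in control (log2FC −3.44, adjusted p = 0.0565). The list had a summed 15.5 to 18.3 CPM in control and 17.7 to 18.0 CPM in Sox2-KD. The part of such cells in the changes of Sox1 and Sox13 was not tested.

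The genes whose level followed that of Sox2 most closely over the 8 libraries were Sf3b2, a splicing factor subunit (Pearson r = 0.988), Rbm8a, a core protein of the exon junction complex, Rfc5, a subunit of the clamp loader of DNA replication, Impdh2, an enzyme of guanine nucleotide synthesis, and Gm15710 (0.973). They had the highest r of 9706 genes whose mean log2 CPM exceeded 3. The 8 points share their groups and scaling, so that this is a description. Sf3b2 was at 371 and 409 CPM in control and 347 and 331 CPM in Sox2-KD, a smaller difference than that of Sox2. No paralog was among these 5 genes.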

How the data were processed

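PolyA RNA of the 8 libraries was sequenced as paired reads on an MGISEQ-2000. Per the paper's methods the authors trimmed reads with Trimmomatic and aligned them with STAR to mm10 (GENCODE vM23). The submitters' processing notes name FastQC, STAR 2.7.9a and featureCounts 2.0.1. The deposited table holds the authors' counts for each gene and library with no normalization, so that isoforms cannot be separated. Strand setting and handling of reads shared between genes are not given in the sources used here. Symbols, exon lengths and transcripts came from GENCODE vM21 (GRCm38), in which all 9 members matched.

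Counts of all 16504 genes kept by filterByExpr (minimum count 10, minimum total count 15) were fitted in edgeR 4.0.16 (R 4.3.3) with TMM scaling and a group term, and tested by quasi-likelihood with Benjamini-Hochberg adjustment over all tested genes. The thresholds were those of the study. SE is the absolute log2FC over the square root of F, and the 95% intervals use the moderated degrees of freedom. The 16709201 to 17719366 counts per library limit precision for genes of few counts. The fit was run on counts simulated from its own means and dispersions, in which 200 genes changed. Such a run checks the procedure and cannot show whether the model suits these data. The alternatives were other size factors, library totals, DESeq2 1.42.0, the likelihood ratio test, other filters, only the 4 libraries compared, the replicate block, no fold limit and leaving out each library. A fit with a single library left in a group assumes that it varies like the other groups. Values of single genes under these alternatives were kept for the members only.

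Named were all 9 members, the 3 targeted genes, genes of the lists, and the 5 genes most correlated with Sox2. The members and lists were chosen with earlier results of these data known. Plots used Python 3.11.15 with matplotlib 3.10.9.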

Additional observations from a re-analysis of the deposited data

How the results depend on the processing

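Of the 8 tested Sox genes, 3 were called in Sox2-KD against control. Over all genes, 713 were called in that comparison in the reported fit, 558 with at least 10 counts in every library, 820 with only the 4 libraries compared, 789 with library totals, 572 with no filter, 1039 with DESeq2, 1350 with the likelihood ratio test and 144 to 840 with 1 library left out. The count of Sox genes was 1 with at least 10 counts in every library (Sox13, while Sox1 drops out of that fit), 1 with only the 4 libraries compared (Sox1), 2 with library totals and with no filter, and 0 to 3 with 1 library left out. It was 0 without control replicate 1 or Sox2-KD replicate 1, and 1 without control replicate 2 (Sox1) or Sox2-KD replicate 2 (Sox13). In Cdk9-KD against control the count of 0 became 1 with DESeq2 (Sox21). Against the libraries labelled hnRNPK-KD, the count of 4 was 3 with only the 4 libraries compared, without Sox21, and ran from 1 to 4 with 1 library left out. Against Cdk9-KD, the count of 4 was 2 with at least 10 counts in every library and ran from 2 to 3 with 1 library left out. These fits differ from the reported one in their libraries, genes, scaling or test, and the cause of these changes was not tested.

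No label says that equal replicate numbers mark a shared culture or day. The correlation between groups of the difference of replicate 1 and 2 ran from −0.22 to 0.21, highest for control with Sox2-KD. Such values cannot show whether libraries of equal number share a culture or day, so that pairing is unknown. With the replicate block, 2 members were called in Sox2-KD against control (Sox2 at an adjusted p of 0.0669), 4 against each other knockdown group and 0 in the other comparisons, and the log2FC of Sox11 in Cdk9-KD turned to 0.0292 and that of Sox4 against the hnRNPK-KD label to −0.0131.

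Sign changes were limited to changes that were not called. Sox4 turned to 0.0182 with library totals in Sox2-KD against control, and to −0.000966 with DESeq2 and −0.0245 without a filter against the hnRNPK-KD label. With 1 library left out, the log2FC in Sox2-KD against control ran from −0.43 to 0.25 for Sox4, −1.88 to 1.12 for Sox11 and −0.48 to 0.23 for Sox15. For the hnRNPK-KD label against control it ran from −0.11 to 0.26 for Sox2, −0.32 to 0.59 for Sox1, −0.27 to 0.11 for Sox4, −0.12 to 0.27 for Sox13 and −0.29 to 0.77 for Sox15. In Cdk9-KD against control it ran from −0.12 to 0.92 for Sox1 and −0.61 to 0.40 for Sox11. For Sox2-KD against the hnRNPK-KD label it ran from −0.39 to 0.30 for Sox4 and −0.94 to 0.12 for Sox15, and against Cdk9-KD from −0.62 to 0.0623 for Sox4 and −1.81 to 1.20 for Sox11. With the longest transcript in place of all exons as length, the Sox2 share was 87.3% in control and 87.6% in Sox2-KD. Depth limits Sox3 and Sox1, and the unknown hairpin of each library limits what a group of 2 shows.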

Other observations

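Among the 11 other Sox genes, Sox18, a gene of endothelial development, had 5 counts in each control library, 0 and 1 in Sox2-KD, 0 in both libraries labelled hnRNPK-KD, and 3 and 0 in Cdk9-KD. Sox7, a relative of Sox17, had 0 counts in both control libraries and 4 and 6 in Sox2-KD. Neither passed the filter on low counts, so that both are given as values.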
